A study of Mus musculus with 6 samples.

Results

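The genes examined here are 10 regulators of the G1 phase of the cell cycle, read from RNA-Seq of mouse skin. They are the D-type cyclins *Ccnd1*, *Ccnd2* and *Ccnd3*, the cyclin-dependent kinases (CDKs) *Cdk4* and *Cdk6*, the CDK inhibitors *Cdkn1b*, *Cdkn1c* and *Cdkn2b*, the retinoblastoma gene *Rb1* and the growth gene *Myc*. They were chosen by name and found by their Ensembl identifiers, as 10 of the 26579 genes in the deposited count matrix. The series compares the skin of the dorsal neck between 3 wild type mice and 3 YAP2-5SA-∆C mice, all female littermates at postnatal day 33, with 1 library per mouse. YAP2-5SA-∆C mice carry a transgene for a mildly active form of YAP, the effector of the Hippo pathway, made in Keratin5/14-positive basal keratinocytes, while the wild type littermates lack it. The RNA came from whole skin punch biopsies, so each value is an average over epidermis, hair follicles, dermis, fat, muscle and blood cells, and not over the keratinocytes that carry the transgene. In such bulk samples, fewer cells of a type and less RNA per cell cannot be told apart.

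In G1, a cell decides whether to copy its DNA. Cyclin D proteins, made in answer to growth signals, bind and switch on CDK4 and CDK6, and these kinases phosphorylate RB, which then releases the E2F transcription factors that drive S phase genes. The inhibitor p15 (*Cdkn2b*) blocks CDK4 and CDK6, and p27 (*Cdkn1b*) and p57 (*Cdkn1c*) bind cyclin and CDK complexes more broadly. MYC is a transcription factor for growth and ribosome genes. In skin, proliferation is found mainly in the basal epidermal layer and in the matrix of the growing hair follicle.

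None of the 10 genes passed an FDR of 0.05 by the quasi-likelihood test of edgeR, against 1.91% of the 15102 genes tested (1.44% higher with the transgene and 0.464% lower). All 10 were among the genes tested, which reached 1 CPM (counts scaled to a common library total) in 3 or more libraries before scaling by TMM. All CPM levels given here are TMM-scaled. *Cdk6* lay just above the threshold, with an FDR of 0.0504 and 1.43 times the wild type level in YAP2-5SA-∆C skin. At an unadjusted p under 0.05, 5 of the 10 passed, 2 of them higher and 3 lower, where 26.3% of all tested genes did so (13.3% higher and 13.0% lower). The 2 higher were *Cdk6* and *Ccnd3*, and the 3 lower were *Cdk4*, *Cdkn1c* and *Rb1*. This count was 3 when YAP2-5SA-∆C replicate 2 was omitted, where 20.8% of all genes passed, and 3 by the likelihood-ratio test, where 20.0% did. It was 6 without the low-count filter (4664 of 26579 genes passed), 6 with the replicate number as a block (2949 of 15102) and 6 without YAP2-5SA-∆C replicate 1 (3674 of 14914). Omitting any other library gave 4, where 2725 to 3841 of all genes passed. For 6 of the 10, the levels of the 2 genotypes did not overlap, against 33.8% of all tested genes. These 6 were the same 5 genes and *Cdkn2b*, of which 2 were higher and 4 lower, where 15.5% of all tested genes were higher and 18.2% lower in this way. The median log2 fold change of the 10 genes was -0.14, and that of all tested genes was -0.01. The likelihood-ratio test of edgeR called 2 of the 10, *Cdk6* and *Cdkn1c*, against 10.4% of all tested genes. DESeq2's Wald test called the same 2 genes, against 10.5% of all, and voom called 0, against 1.65%.

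**Figure D1:**
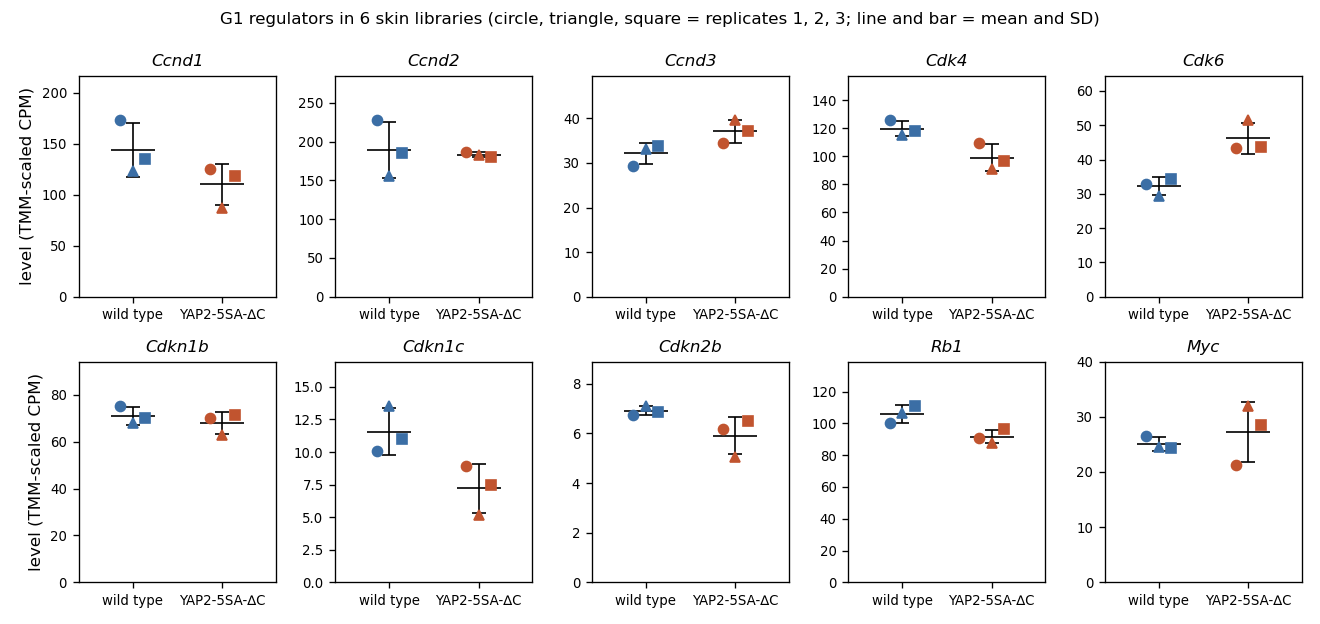
TMM-scaled CPM (vertical axes, starting at 0) of the 10 genes in the wild type (blue) and YAP2-5SA-∆C (red) libraries, with circles, triangles and squares for replicates 1, 2 and 3 and a line and bar for the mean and SD of 3 mice. *Cdk6* and *Ccnd3* lie higher in all YAP2-5SA-∆C libraries than in any wild type library, and *Cdk4*, *Cdkn1c*, *Cdkn2b* and *Rb1* lie lower.

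Total counts ranged from 11225705 to 19505036 per library, of which the 10 genes took 0.0644% to 0.0842%. One count was worth between 0.0523 and 0.0951 CPM, and the lowest raw count of any of the 10 genes was 72 (*Cdkn2b*). *Yap1*, the gene of the transgene, had 142, 125 and 126 CPM in wild type and 136, 144 and 129.6 CPM in YAP2-5SA-∆C skin, which overlap. Whether transgene reads fell on it cannot be told from the counts. YAP2-5SA-∆C replicate 2 stood apart: it held the lowest or the highest level of all 6 libraries for 9 of the 10 genes.

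The kinases were examined first. *Cdk6* (ENSMUSG00000040274, chromosome 5 of GRCm38 from 3341485 to 3531008) encodes the less abundant of the G1 kinases in this skin. Its level was 32.8, 29.4 and 34.4 CPM in wild type replicates 1, 2 and 3, and 43.3, 51.5 and 43.7 CPM in the YAP2-5SA-∆C replicates. Every YAP2-5SA-∆C library was above every wild type library, with replicate 2 the highest. The means were 32.2 ± 2.57 CPM and 46.2 ± 4.59 CPM (SD, n = 3 each), and the log2 fold change was 0.52 (SE 0.10, 95% interval 0.29 to 0.75, edgeR quasi-likelihood FDR = 0.0504). The side of the threshold depended on the setting. The quasi-likelihood FDR of edgeR was 0.0464 with RLE size factors, where 2.36% of all genes were called, and 0.0425 with upper-quartile factors, where 2.75% were. It was 0.0375 when low counts were kept, where 1.87% of all genes were called, and 0.0484 when each sample needed 10 or more counts, where 2.07% were. With the other tests, the FDR was 0.0124 by the likelihood-ratio test of edgeR, 0.000665 by DESeq2's Wald test and 0.0534 by voom. Leaving out YAP2-5SA-∆C replicate 2, the library with the highest *Cdk6*, gave a log2 fold change of 0.45 and a quasi-likelihood FDR of 0.0300, in a fit that called 5.46% of its genes. Leaving out any other library gave an FDR between 0.0688 and 0.186.

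*Cdk4* (ENSMUSG00000006728, chromosome 10 from 127063534 to 127067920) encodes the sister kinase, which binds the same cyclins. Its level was 126, 115 and 118 CPM in wild type and 109, 91.2 and 96.8 CPM in YAP2-5SA-∆C skin. Here every YAP2-5SA-∆C library was below every wild type library, the reverse of *Cdk6*. Between genotypes, the log2 fold change was -0.27 (SE 0.08, 95% interval -0.46 to -0.08, edgeR quasi-likelihood FDR = 0.0965), and no setting called it. Of the exon bases of *Cdk4*, 19.7% are shared with *Tspan31* on the opposite strand, and the strand setting of the counting is not given in the sources used here. *Tspan31* itself had 40.1, 38.5 and 41.0 CPM in wild type and 35.5, 39.5 and 40.6 CPM in the YAP2-5SA-∆C libraries, and its log2 fold change was -0.05 (edgeR quasi-likelihood FDR = 0.711).

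Counts of different genes can be compared only per length, so levels were divided by the length of all annotated exons. On this scale, *Cdk4* had 36.8 ± 1.71 CPM per kb in wild type and 30.5 ± 2.88 CPM per kb in YAP2-5SA-∆C skin, and *Cdk6* had 2.30 ± 0.183 and 3.30 ± 0.328 CPM per kb (SD, n = 3). *Cdk6* therefore made up 5.71%, 5.61% and 6.33% of the sum of both kinases in the wild type libraries, and 8.42%, 11.6% and 9.50% in the YAP2-5SA-∆C libraries. The groups did not overlap, and the difference was 3.95 percentage points (exact permutation test, two-sided, p = 0.1, the smallest that 3 mice against 3 allow). It stayed between 3.07 and 4.66 points when single libraries were omitted, and was 10.7 points when counts were not divided by length. The sum itself was 39.1 ± 1.80 CPM per kb in wild type and 33.8 ± 2.64 CPM per kb in YAP2-5SA-∆C skin, again without overlap (SD, n = 3 each, exact permutation p = 0.1). In both genotypes, *Cdk4* remained the main kinase transcript of the pair.

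**Figure D2:**
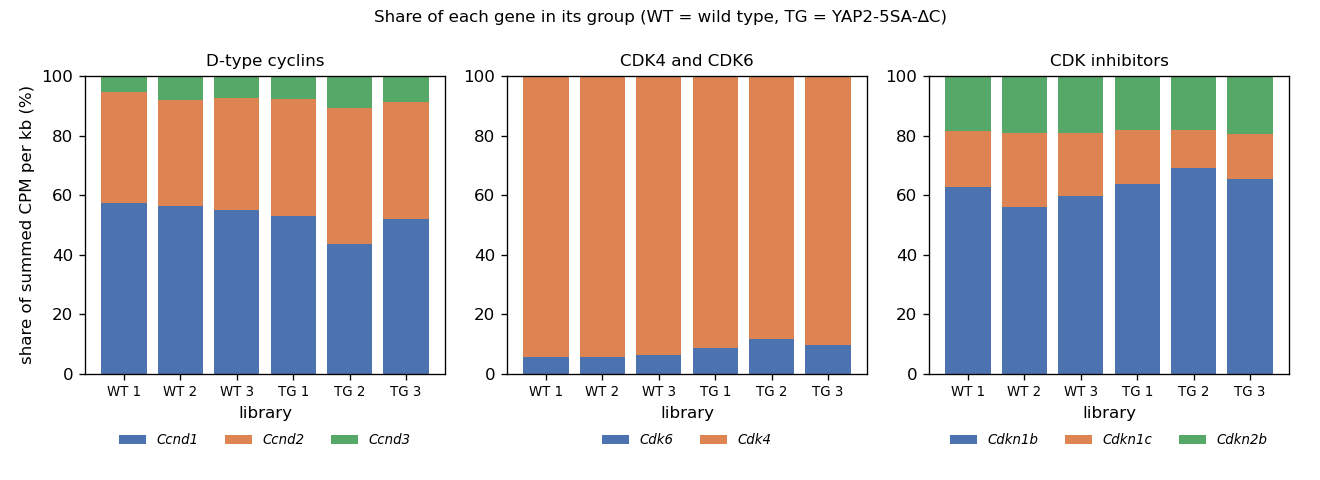
Share (vertical axis, percent of the summed CPM per kb) of each gene among the D-type cyclins (left), CDK4 and CDK6 (middle) and the CDK inhibitors (right), 1 bar per library. The share of *Cdk6* lies between 5.61% and 6.33% in the wild type bars and between 8.42% and 11.6% in the YAP2-5SA-∆C bars, and the share of *Cdkn1c* is lower in each YAP2-5SA-∆C bar than in any wild type bar.

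The promoters of the kinases differed in their number of sites for MYC. Promoter sequence from 250 bases before to 50 bases after the gene start (RefSeq, GRCm38.p6) was at hand for 5 of the 10 genes, *Ccnd3* with 2 starts and *Cdk4*, *Cdk6*, *Cdkn1b* and *Cdkn2b* with 1 each. The E-box CACGTG, the site that MYC binds with its partner MAX, reads the same on both strands. It occurs in 7.15% of the 32851 promoter windows in the table. The window of *Cdk4* holds 4 of them, at 172, 118, 98 and 11 bases before the start, and 0.0244% of all windows hold 4 or more. The window of *Cdk6* holds 1, at 220 bases before the start, and those of the other 3 genes hold none. The sequences around these E-boxes are printed because the E-box was the only one of the motifs searched (E-box, TEAD, E2F and AP-1) that occurred in the kinase promoters. Each is on the plus strand, 5′ to 3′, with the E-box in capitals, and the middle pair of *Cdk4* stretches overlap each other.
Cdk4 chr10:127063351-127063380: atggcagccagtCACGTGccacacagcgta
Cdk4 chr10:127063405-127063434: aagtcaaggggtCACGTGggatagcaacag
Cdk4 chr10:127063425-127063454: atagcaacaggtCACGTGgccgtcagggcc
Cdk4 chr10:127063512-127063541: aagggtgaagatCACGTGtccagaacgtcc
Cdk6 chr5:3343661-3343690: gttctgcggcccCACGTGggtgaacccccg
These are matches of letters, and binding of MYC was not measured here. *Myc* itself is described further on.

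Of the D-type cyclins, *Ccnd1* and *Ccnd2* were abundant and *Ccnd3* was not. *Ccnd1* (ENSMUSG00000070348, chromosome 7 from 144929931 to 144939925) encodes cyclin D1, a cyclin often raised in epithelial tumours. Its level was 173, 123 and 135 CPM in wild type and 125, 87.0 and 118 CPM in YAP2-5SA-∆C skin. The groups overlapped by a narrow margin, with wild type replicate 1 the highest and YAP2-5SA-∆C replicate 2 the lowest. In the fit, its log2 fold change was -0.38 (SE 0.17, 95% interval -0.79 to 0.02, edgeR quasi-likelihood FDR = 0.207). Omitting either YAP2-5SA-∆C replicate 2 or wild type replicate 1 gave -0.22. Exons of *LTO1* on the opposite strand share 23.4% of the exon bases of *Ccnd1*, and *LTO1* had a log2 fold change of -0.03 (edgeR FDR = 0.859).

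*Ccnd2* (ENSMUSG00000000184, chromosome 6 from 127125162 to 127152193) encodes cyclin D2. It had 228, 155 and 185 CPM in wild type and 186, 183 and 179 CPM in YAP2-5SA-∆C skin. The wild type libraries spread widely (SD 36.4 CPM, n = 3) around the closely grouped YAP2-5SA-∆C libraries (SD 3.47 CPM, n = 3). This gave a log2 fold change of -0.05 (SE 0.13, 95% interval -0.36 to 0.26, edgeR quasi-likelihood FDR = 0.845). Its sign rested on wild type replicate 1, without which it was 0.11, and omitting wild type replicate 2 gave -0.17. The interval still allows a difference of about the size measured for *Cdk4*.

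*Ccnd3* (ENSMUSG00000034165, chromosome 17 from 47505051 to 47599691) encodes cyclin D3. Its level was 29.4, 33.1 and 33.9 CPM in wild type and 34.4, 39.6 and 37.1 CPM in YAP2-5SA-∆C skin. All YAP2-5SA-∆C libraries were above all wild type libraries, but wild type replicate 3 and YAP2-5SA-∆C replicate 1 lay close together. The log2 fold change was 0.21 (SE 0.085, 95% interval 0.01 to 0.41, edgeR quasi-likelihood FDR = 0.179), at an unadjusted p of 0.0452 in that edgeR fit. The second promoter of *Ccnd3* holds the core site GGAATG of TEAD, the DNA-binding partner of YAP, on the minus strand 17 bases before the start, as do 14.7% of all promoter windows on either strand. It is shown on the plus strand, with the reverse complement of the core in capitals, because it was the only TEAD core found in the 6 promoter windows of these genes.
Ccnd3 chr17:47593438-47593467: gtgacgtaggagCATTCCacggttgctaca
The E2F sites TTTCCCGC, TTTGGCGC, TTTCGCGC and TTTGCCGC, searched on both strands, occurred in none of the 6 windows, and 2.26% of all windows hold at least 1 of them. The AP-1 site TGANTCA also occurred in none of the 6, and occurs in 7.81% of all windows.

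Per length, *Ccnd1* had 30.5 ± 5.53 CPM per kb in wild type against 23.4 ± 4.33 in YAP2-5SA-∆C skin, *Ccnd2* had 20.1 ± 3.87 and 19.4 ± 0.369, and *Ccnd3* had 3.66 ± 0.271 and 4.22 ± 0.295 (SD, n = 3). Of the summed level of the D-type cyclins, *Ccnd1* took 57.2%, 56.4% and 54.98% in the wild type libraries and 52.8%, 43.6% and 51.9% in the YAP2-5SA-∆C libraries. The difference in this share was -6.75 percentage points, without overlap (exact permutation test, two-sided, p = 0.1, the smallest possible), and -3.82 points without YAP2-5SA-∆C replicate 2. The share of *Ccnd2* was 37.6%, 35.5% and 37.6% in wild type against 39.4%, 45.8% and 39.4% in YAP2-5SA-∆C skin. This was a difference of 4.61 points without overlap (exact permutation p = 0.1), and of 2.46 points without YAP2-5SA-∆C replicate 2. With the longest coding transcript as length it was 2.57 points, and the groups then overlapped (exact permutation p = 0.3). As shares of the same sum depend on each other, this is not independent of the share of *Ccnd1*, and the level of *Ccnd2* itself overlapped between genotypes. The share of *Ccnd3* had overlapping ranges, with means of 6.91% and 9.06% and a difference of 2.15 points (exact permutation p = 0.2). That difference was 1.298 points without wild type replicate 1 and 1.35 points without YAP2-5SA-∆C replicate 2, and 4.69 points with the longest coding transcript as length. The summed level of the cyclins was 54.3 ± 9.12 CPM per kb in wild type and 47.1 ± 4.14 CPM per kb in YAP2-5SA-∆C skin, which overlap (SD, n = 3 each, exact permutation p = 0.4).

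Among the CDK inhibitors, log2 fold changes ran from -0.68 to -0.06, with 95% intervals that overlap each other, and a difference between the inhibitors was not tested. *Cdkn1c* (ENSMUSG00000037664, chromosome 7 from 143458339 to 143461050) encodes p57, an inhibitor linked to cells that leave the cycle, and is an imprinted gene. It had 10.1, 13.6 and 11.04 CPM in wild type and 8.95, 5.18 and 7.49 CPM in YAP2-5SA-∆C skin. Every YAP2-5SA-∆C library was below every wild type library, and replicate 2 was the lowest. In the fit, its log2 fold change was -0.68 (SE 0.21, 95% interval -1.19 to -0.18), which was the difference furthest from 0 among the 10 genes. Its edgeR quasi-likelihood FDR was 0.106, while the FDR was 0.0199 by the likelihood-ratio test, 0.0457 by DESeq2's Wald test and 0.0992 by voom. Omitting YAP2-5SA-∆C replicate 2 gave a log2 fold change of -0.48, and the quasi-likelihood FDR was between 0.0966 and 0.290 when each library was left out. An antisense gene, *Gm44732*, which was not analysed here, shares 30.7% of the exon bases of *Cdkn1c*.

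*Cdkn1b* (ENSMUSG00000003031, chromosome 6 from 134920401 to 134925513) encodes p27. Its level was 75.3, 68.0 and 69.9 CPM in wild type and 70.2, 62.7 and 71.4 CPM in YAP2-5SA-∆C skin. The groups overlapped, with YAP2-5SA-∆C replicate 2 alone below the wild type range. Between genotypes, the log2 fold change was -0.06 (SE 0.07, 95% interval -0.24 to 0.11, edgeR quasi-likelihood FDR = 0.632). It was 0.01 without YAP2-5SA-∆C replicate 2, so its sign was not settled.

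*Cdkn2b* (ENSMUSG00000073802, chromosome 4 from 89306299 to 89311039) encodes p15, which TGF-β induces in keratinocytes. It had 6.76, 7.12 and 6.85 CPM in wild type and 6.17, 5.06 and 6.49 CPM in YAP2-5SA-∆C skin. The YAP2-5SA-∆C libraries were all lower, with replicate 3 only just below the wild type range. The log2 fold change was -0.23 (SE 0.13, 95% interval -0.53 to 0.07, edgeR quasi-likelihood FDR = 0.300), and -0.11 once YAP2-5SA-∆C replicate 2 was omitted. At 72 to 136 counts per library, it was the least covered of the 10 genes.

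Per length, *Cdkn1b* was the main inhibitor transcript of these 3, with 15.6 ± 0.834 CPM per kb in wild type against 14.96 ± 1.03 in YAP2-5SA-∆C skin (SD, n = 3). *Cdkn1c* had 5.67 ± 0.873 and 3.53 ± 0.934 CPM per kb, and *Cdkn2b* had 4.97 ± 0.133 and 4.25 ± 0.541. The share of *Cdkn1c* in their sum was 18.8%, 24.9% and 21.1% in wild type against 18.1%, 12.7% and 15.3% in YAP2-5SA-∆C skin. The groups did not overlap, at a difference of -6.22 percentage points (exact permutation test, two-sided, p = 0.1, the smallest possible). The share of *Cdkn1b* was 62.7%, 55.9% and 59.8% in wild type against 63.6%, 69.0% and 65.3% in YAP2-5SA-∆C skin, a difference of 6.49 points without overlap (exact permutation p = 0.1). Shares of the same sum depend on each other, and the level of *Cdkn1b* itself overlapped between genotypes. For *Cdkn2b* the difference in share was -0.27 points, with overlap (exact permutation p = 0.8), and it ranged from -0.656 points (without YAP2-5SA-∆C replicate 3) to -0.0584 points (without YAP2-5SA-∆C replicate 2) as single libraries of either genotype were omitted. It was -0.463 points when counts were not divided by length. The sum of the 3 inhibitors was 26.3 ± 0.509 CPM per kb in wild type and 22.7 ± 2.42 CPM per kb in YAP2-5SA-∆C skin, without overlap (SD, n = 3 each, exact permutation p = 0.1).

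*Rb1* (ENSMUSG00000022105, chromosome 14 from 73183673 to 73325822) encodes RB, the substrate of CDK4 and CDK6 that holds back E2F. It had 99.99, 107 and 111 CPM in wild type and 90.7, 88.0 and 96.4 CPM in YAP2-5SA-∆C skin. All YAP2-5SA-∆C libraries were below all wild type libraries, within a narrow range. This gave a log2 fold change of -0.21 (SE 0.07, 95% interval -0.36 to -0.05, edgeR quasi-likelihood FDR = 0.106). When each library was left out, the log2 fold change was between -0.24 and -0.16. *Lpar6*, which shares 6.78% of the exon bases of *Rb1* on the opposite strand, had 39.0, 43.5 and 43.3 CPM in wild type and 29.9, 15.8 and 29.3 CPM in YAP2-5SA-∆C skin. Its log2 fold change was -0.75 (edgeR quasi-likelihood FDR = 0.102), and its part in the value of *Rb1* was not tested. *Rcbtb2*, with 8.11% of those bases, had a log2 fold change of -0.03 (edgeR FDR = 0.845). Single genes on the opposite strand share 2.63% to 4.11% of the exon bases of *Ccnd2*, *Ccnd3* and *Cdk6*, and *Cdkn1b*, *Cdkn2b* and *Myc* share none.

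*Myc* (ENSMUSG00000022346, chromosome 15 from 61985391 to 61990374) encodes the transcription factor whose E-box stands 4 times in the *Cdk4* promoter printed above. Its level was 26.5, 24.4 and 24.4 CPM in wild type and 21.3, 32.01 and 28.5 CPM in YAP2-5SA-∆C skin. The YAP2-5SA-∆C libraries lay on both sides of the wild type range, with replicate 1 below it and replicates 2 and 3 above it. Between genotypes, the log2 fold change was 0.12 (SE 0.15, 95% interval -0.23 to 0.46, edgeR quasi-likelihood FDR = 0.639). Omitting YAP2-5SA-∆C replicate 2 gave 0.01, and omitting replicate 1 of that genotype gave 0.29.

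**Figure D3:**
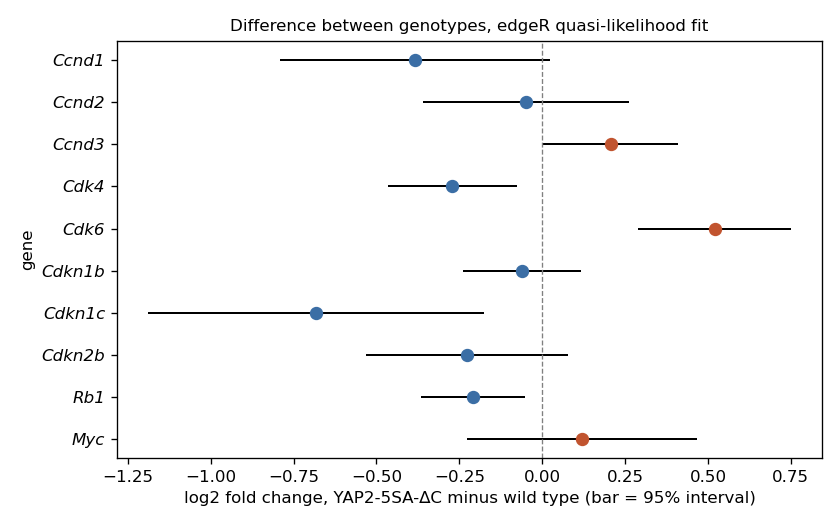
log2 fold change (horizontal axis, YAP2-5SA-∆C minus wild type) of each gene in edgeR's quasi-likelihood fit, with bars for 95% intervals, blue below 0 and red above 0. The intervals of *Cdk6* (0.29 to 0.75), *Ccnd3* (0.01 to 0.41), *Cdk4* (-0.46 to -0.08), *Cdkn1c* (-1.19 to -0.18) and *Rb1* (-0.36 to -0.05) leave out 0, before adjustment for the number of genes tested.

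The order of the levels per length was much the same in both genotypes. In wild type it ran from *Cdk4* through *Ccnd1*, *Ccnd2*, *Rb1*, *Cdkn1b*, *Myc*, *Cdkn1c*, *Cdkn2b* and *Ccnd3* down to *Cdk6*. Neighbours whose libraries overlapped, and which were therefore not set apart, were *Cdk4* and *Ccnd1*, *Ccnd2* and *Rb1*, and *Cdkn1c* and *Cdkn2b*. In YAP2-5SA-∆C skin the order was the same down to *Myc* (10.04 ± 2.01 CPM per kb, against 9.24 ± 0.446 in wild type), and *Cdkn2b*, *Ccnd3*, *Cdkn1c* and *Cdk6* followed. Each of these last 4 overlapped the next, so *Cdk6* was set apart from the gene above it in the wild type order but not in the other. The pairs *Ccnd1* and *Ccnd2* and *Rb1* and *Cdkn1b* also overlapped there.

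The wider pathway was read from 9 lists of 112 genes, of which 110 were tested. The quasi-likelihood test called 0 of the 110, against 1.91% of all tested genes, and voom also called 0, against 1.65% of all. At an unadjusted p under 0.05, 3 were higher and 11 lower, where 13.3% of all tested genes were higher and 13.0% lower. The likelihood-ratio test called 2, *Mycn* and *Mycl*, where it called 10.4% of all tested genes. DESeq2 called 5, which were those 2 with *Mxd1*, *Skp1a* and *Eif4e*, where it called 10.5% of all. The median log2 fold change of the 110 genes was -0.06, against -0.01 for all tested genes, with 35 above 0 and 75 below.

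Among the 3 other CDK inhibitors tested, the median log2 fold change was 0.07. *Cdkn2d*, which encodes p19 of the same INK4 family as p15, had 4.62, 5.60 and 5.42 CPM in wild type and 6.73, 6.77 and 7.99 CPM in YAP2-5SA-∆C skin. The groups did not overlap, and the log2 fold change was 0.46 (edgeR quasi-likelihood FDR = 0.0912). *Cdkn1a*, which encodes the p53 target p21, overlapped (log2 fold change 0.07, edgeR FDR = 0.787). *Cdkn2a* was below the filter, with at most 5 counts in any library. The next step of the cycle, with cyclins E and A and CDK2, had a median of -0.10 over 4 genes, and *Ccne2* (cyclin E2, -0.17, FDR 0.286) and *Cdk2* (-0.11, FDR 0.430) had the lowest p-values in the edgeR test.

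Among the 12 RB relatives, E2F and DP factors, the median log2 fold change was -0.11, with 4 above 0 and 8 below. The repressor *E2f5* had 11.8, 11.9 and 11.8 CPM in wild type and 9.62, 8.53 and 9.67 CPM in the YAP2-5SA-∆C libraries, so its log2 fold change was -0.35 (edgeR quasi-likelihood FDR = 0.0768). The activator *E2f1* had 6.82, 5.70 and 5.52 CPM in wild type and 7.68, 7.47 and 8.43 CPM in the YAP2-5SA-∆C libraries, so its log2 fold change was 0.38 (FDR 0.117). Neither gene had overlapping groups. The activators *E2f2* (-0.23, FDR 0.146) and *E2f3* (-0.24, FDR 0.297) were lower without overlap, so the activators did not share a direction. Of the 15 genes that regulate CDK activity or the turnover of G1 proteins, 11 were below 0, with a median of -0.08. *Skp1a* and *Cul1*, subunits of the SCF ubiquitin ligase that marks p27 for degradation, had log2 fold changes of -0.28 and -0.19 (edgeR FDR = 0.0622 and 0.110).

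The 22 replication and S phase genes had a median log2 fold change of -0.02, with 7 above 0 and 15 below, and the 16 G2 and mitosis genes a median of -0.11, with 3 above 0 and 13 below, where 7194 of all tested genes were above 0 and 7908 below. No gene of either list was called by the quasi-likelihood test, the likelihood-ratio test, voom or DESeq2, which called 1.91%, 10.4%, 1.65% and 10.5% of all tested genes. Of the 22, 1 had an unadjusted p under 0.05 in the quasi-likelihood test, and 0 of the 16 did, where 26.3% of all tested genes did. In the edgeR quasi-likelihood test, the lowest p-values among S phase genes were those of *Gins1*, a replication helicase subunit (-0.29, FDR 0.161), and *Rrm2*, the small subunit of ribonucleotide reductase (0.21, FDR 0.196). Among mitosis genes they were those of the kinase *Aurka* (-0.20, FDR 0.214) and the cyclin *Ccnb1* (-0.20, FDR 0.247).

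The 12 partners and relatives of *Myc* had a median log2 fold change of -0.01, with 6 above 0 and 6 below, but they spread from -0.61 to 0.36. *Mycn*, which encodes the related factor N-MYC, had 25.1, 21.4 and 22.6 CPM in wild type and 17.6, 12.5 and 15.1 CPM in YAP2-5SA-∆C skin, without overlap. Its log2 fold change was -0.61 (SE 0.13, edgeR quasi-likelihood FDR = 0.0612). The FDR was 0.00919 by the likelihood-ratio test and 0.0048 by DESeq2. *Mycl*, which encodes L-MYC, had a log2 fold change of -0.51 (edgeR FDR = 0.0905). *Mxd1*, which encodes a MAX partner that opposes MYC, had 80.0, 81.0 and 86.0 CPM in wild type and 91.7, 106 and 99.8 CPM in YAP2-5SA-∆C skin. It had a log2 fold change of 0.27 (edgeR FDR = 0.0767). The 17 nucleolar and growth genes that MYC is known to induce had a median log2 fold change of -0.03, between -0.27 for *Eif4e*, the cap-binding translation factor (FDR 0.0641 in the edgeR test), and 0.09. *Odc1*, the first enzyme of polyamine synthesis, had -0.22 (FDR 0.107).

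*Cdkn1c* lies in a cluster of imprinted genes on chromosome 7, of which 9 were tested. Their median log2 fold change was -0.15. The quasi-likelihood test, likelihood-ratio test, voom and DESeq2 called 0 of the 9, against 1.91%, 10.4%, 1.65% and 10.5% of all tested genes. At an unadjusted p under 0.05 in edgeR's quasi-likelihood test there were also 0, where 26.3% of all tested genes passed. The neighbour *Nap1l4* had -0.17 (FDR 0.252), and the noncoding RNA *H19* had -1.02 (FDR 0.274). *H19* was 74.3, 305 and 299.8 CPM in wild type and 162, 105 and 67.4 CPM in YAP2-5SA-∆C skin, with wild type replicate 1 among the low libraries, as it was for the skeletal muscle markers described next.

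**Figure D4:**
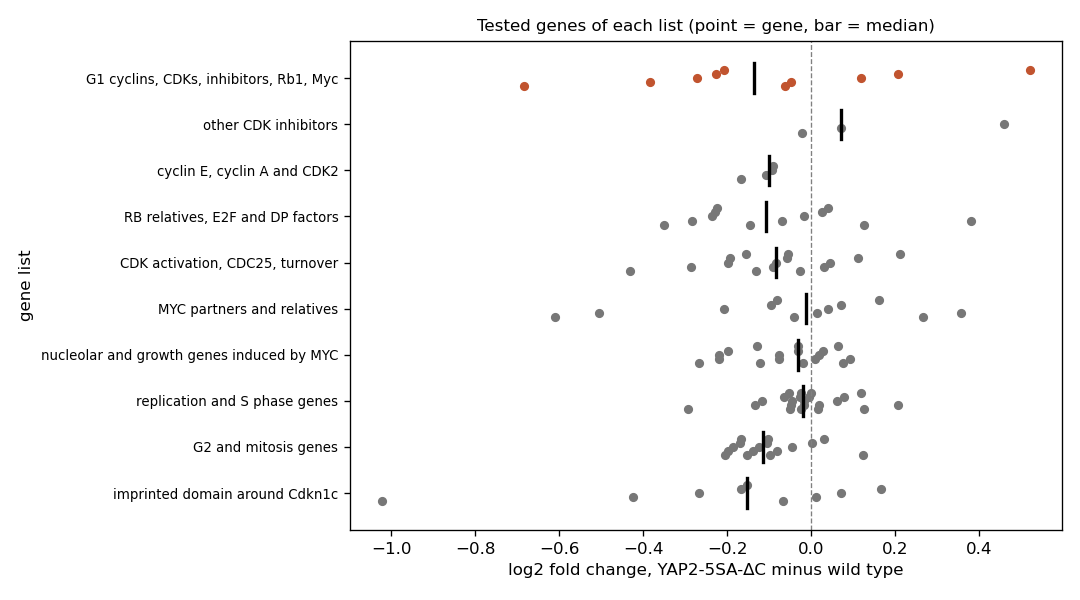
log2 fold change (horizontal axis, YAP2-5SA-∆C minus wild type) of each tested gene of the 10 regulators (red points) and of the 9 other pathway lists (grey points), with a black bar for the median of each list. The 10 regulators spread from -0.68 to 0.52, while the replication and S phase genes lie between -0.29 and 0.21.

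Several cell type markers moved with genotype in the same libraries. The 10 markers of the hair follicle, from its matrix, inner root sheath and hair shaft, were all lower without overlap, where 18.2% of all tested genes were. Their summed level, mostly from genes of the inner root sheath, was 12305, 15021 and 14296 CPM in wild type and 6590, 1406 and 8359 CPM in YAP2-5SA-∆C skin. None was called by the quasi-likelihood test or voom, which called 1.91% and 1.65% of all tested genes, and 9 were lower at an unadjusted p under 0.05 in the former, where 13.0% of all were. The likelihood-ratio test called 9, against 10.4% of all tested genes, and DESeq2 called 2, against 10.5%. *Msx2* and *Lef1*, factors of the hair matrix, had log2 fold changes of -1.13 (FDR 0.0811) and -0.94 (FDR 0.0905) in the edgeR test. The sum was lowest in YAP2-5SA-∆C replicate 2, the library in which *Cdk4*, *Ccnd1*, *Cdkn1b*, *Cdkn1c*, *Cdkn2b* and *Rb1* were also lowest. All 5 melanocyte markers were lower too (151 to 261 CPM against 408 to 478 CPM in sum), and 2 of them, *Dct* and *Tyrp1*, enzymes of pigment synthesis, were called lower, where 0.464% of all tested genes were (FDR 0.0467 and 0.0468 in edgeR's quasi-likelihood test).

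Markers of the epidermis stood the other way. All 7 basal keratinocyte markers had log2 fold changes above 0, with a median of 0.56 and sums of 3593 to 4358 CPM in wild type and 5903 to 7540.4 CPM in YAP2-5SA-∆C skin. *Krt14*, the keratin of the basal layer, was the 1 of the 7 called by the quasi-likelihood test, where 1.44% of all tested genes were called higher. Its log2 fold change was 0.95 (edgeR quasi-likelihood FDR = 0.0300), and *Itga6*, a basal integrin, had 0.57 (FDR 0.0615). The likelihood-ratio test called 3 of the 7, against 10.4% of all tested genes, DESeq2 called 5, against 10.5%, and voom called 1, against 1.65%. At an unadjusted p under 0.05 in the quasi-likelihood test, 5 were higher, where 13.3% of all were. The 5 suprabasal markers tested had a median of 0.58, sums of 4081 to 5049 CPM against 5531 to 10165 CPM, and 0 calls by the quasi-likelihood test or voom. The likelihood-ratio test called 2 of them, against 10.4% of all tested genes, and DESeq2 called 3, against 10.5%. At an unadjusted p under 0.05, 3 were higher, where 13.3% of all tested genes were. They included *Krtdap* (0.85, FDR 0.0596) and *Krt1* (0.72, FDR 0.0887), both made as keratinocytes differentiate. All 6 macrophage markers were higher without overlap, where 15.5% of all tested genes were, with sums of 386 to 461 CPM in wild type and 577 to 631 CPM in YAP2-5SA-∆C skin, and 2 of the 6, *Mrc1* and *Csf1r*, were called higher, where 1.44% of all genes were (both log2 fold changes 0.54, FDR 0.0341 and 0.0456 in the edgeR test). *Cdk6* and *Ccnd3* were higher in the same libraries as these lists. The part of hair follicle, melanocyte, keratinocyte and macrophage RNA in the levels of the 10 regulators was not tested.

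The other marker lists had 0 calls in edgeR's quasi-likelihood test, which called 1.91% of all tested genes. Skeletal muscle markers summed to 1188, 6330.3 and 5055 CPM in wild type and 3012, 1753 and 1084 CPM in YAP2-5SA-∆C skin, so muscle RNA differed between biopsies of the same genotype, and *Mylpf* and *Myh4* had log2 fold changes of -1.19 each (FDR 0.246 and 0.270). All 7 fibroblast markers had log2 fold changes above 0 (median 0.25, with *Lum* at 0.29 and *Dcn* at 0.25), and 3 of them had an unadjusted p under 0.05, where 13.3% of all tested genes were higher at that p. Their sums overlapped (9642 to 12978 CPM in wild type against 12438 to 16157 CPM in YAP2-5SA-∆C skin). Sums also overlapped for the adipocyte markers (815 to 1310 CPM over all libraries, median log2 fold change 0.04, *Plin1* 0.23 and *Cfd* 0.16). The T cell markers summed to 4.81 to 9.00 CPM over all libraries, with overlap (median 0.61 over 3 tested genes, *Cd2* 1.15 and *Cd3e* 0.61). The endothelial markers did not overlap in sum, by a narrow margin (96.1 to 114.7 CPM in wild type against 115.1 to 138.5 CPM in YAP2-5SA-∆C skin), with a median log2 fold change of 0.17 (*Pecam1* 0.32 and *Cdh5* 0.26). In these 5 lists the likelihood-ratio test called 1 gene, *Cd2*, where it called 10.4% of all tested genes. DESeq2 called 2, both fibroblast genes, where it called 10.5% of all, and voom called 0, against 1.65%. An unadjusted p under 0.05 in the quasi-likelihood test was reached by 1 of 3 T cell markers and 1 of 5 endothelial markers. Among the 6 adipocyte and 7 muscle markers 0 reached it, where 26.3% of all tested genes did. No marker present in the matrix was at 0 in all libraries.

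**Figure D5:**
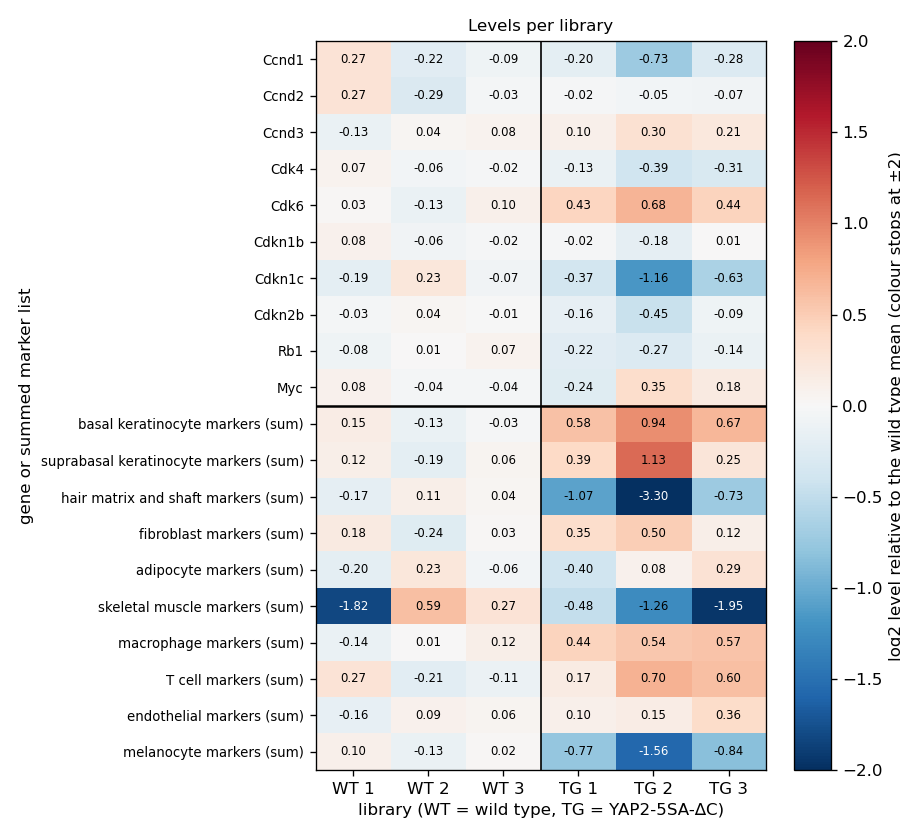
log2 level of each regulator (upper rows) and of the summed markers of each cell type (lower rows) in every library, relative to the wild type mean, with the value printed in each cell and a colour scale that stops at ±2. In YAP2-5SA-∆C replicate 2, *Cdk6* is at 0.68 and *Cdkn1c* at -1.16, beside -3.30 for the hair markers and 0.94 for the basal keratinocyte markers.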

How the data were processed

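RNA-Seq of 6 libraries, 3 per genotype, was analysed from raw counts per Ensembl gene, as deposited by the authors. Per the study's methods, paired-end reads were mapped by the authors to GRCm38 using TopHat2 and Bowtie2 (2.0.12 and 2.1.0 in the submitters' processing notes, of which the TopHat2 version differs from the one in the study's methods), and uniquely mapped reads were counted with HTSeq-count. The annotation release and strand setting are not given in the sources used here, so counts of genes that overlap on opposite strands are uncertain. The labels name a stranded total RNA kit, whereas the paper describes mRNA libraries.

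The 15102 genes that reached 1 CPM before scaling in 3 or more libraries were then scaled by TMM and tested with the quasi-likelihood test of edgeR 4.0.16 in R 4.3.3, with genotype as the only term and Benjamini-Hochberg adjustment over all tested genes (FDR, threshold 0.05). The study's own methods list edgeR's likelihood-ratio test and voom. Both, run here with edgeR 4.0.16 and limma 3.58.1, and DESeq2 1.42.0, other scalings and filters, a replicate block and the omission of each library were run as alternatives. The standard error is the size of the log2 fold change divided by the square root of F. The fit was tested on simulated data.

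CPM per kb uses the union of exons in GENCODE M21. Shares were compared with exact permutation tests over mice. The length of the longest coding transcript as an alternative was added after seeing the data. P-values of the fits weigh the difference between genotypes against the spread between mice, 3 per group. The edgeR, voom and DESeq2 tests each estimated that spread for a gene partly from the other genes. Replicates differed by more than sampling noise, so each was counted as 1 sample. Named were the 10 regulators, the called genes of each pathway list (or the 2 with the lowest p), the 2 markers per list with the lowest p, and *Yap1*. Genes sharing exons with a regulator were named for that overlap, and *Mycl* after its values were seen, since other tests called it. *E2f2* and *E2f3*, the other activator E2Fs, were also added after their values were seen. The 10 genes and the lists were chosen with earlier results of these data known. *Kcnq1ot1*, *Flg* and *Trdc* were not analysed here.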

Additional observations from a re-analysis of the deposited data

How the results depend on the processing

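Of 140 log2 fold changes of the 10 regulators under alternative settings, 138 kept their direction. When each library was left out, *Ccnd2* ranged from -0.17 to 0.11 (the latter without wild type replicate 1) and *Cdkn1b* from -0.0948 to 0.0114 (the latter without YAP2-5SA-∆C replicate 2), and these were the 2 that reversed. The quasi-likelihood test called 0 regulators and 288 genes as reported. It called 1 regulator (*Cdk6*) under either other scaling (RLE or upper quartile) and under either other filter (none, or 10 counts per sample), and the likelihood-ratio test and DESeq2 each called 2. When each library was left out, 0 to 1 regulators were called, and 0 to 816 of all genes. Omission of wild type replicate 1 left 142 genes, of YAP2-5SA-∆C replicate 1 left 86 and of YAP2-5SA-∆C replicate 2 gave 816. No gene (0) was left after omission of replicate 2 or 3 of wild type or of YAP2-5SA-∆C replicate 3, with 2725, 2844 and 3692 genes at an unadjusted p under 0.05. Over all genes, 497 were called without the low-count filter, 1568 by the likelihood-ratio test and 1590 by DESeq2. Of the 110 pathway and 61 marker genes tested, the quasi-likelihood test called 5, all of them markers, against 1.91% of all tested genes. The likelihood-ratio test called 26 (2 pathway genes and 24 markers), against 10.4% of all, and DESeq2 called 27 (5 and 22), against 10.5%. Without the filter 8 listed genes were called, against 1.87% of all. When each library was left out, 0 to 22 were called, against 0% to 5.46% of all. The cause of these differences was not tested.

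A fit with the replicate number as a block called 0 regulators, 0 listed genes and 0 genes in all, where 2949 genes had an unadjusted p under 0.05. Deviations of same-numbered libraries correlated at -0.35, -0.26 and -0.07. With 3 mice per group, such correlations cannot show whether same-numbered mice were paired, and the labels give no pairing. The difference in the share of *Cdk6* was 10.7 percentage points when counts were not divided by length, and that of *Ccnd3* was 4.69 points with the longest coding transcript as length. With that length the share of *Ccnd2* differed by 2.57 points, with overlap. With 3 mice per group, shares could not reach p below 0.1, and the intervals of the log2 fold changes were wide, most of all for *Cdkn1c* (-1.19 to -0.18) and *Ccnd1* (-0.79 to 0.02).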
